A study of Mus musculus with 1104 samples.

Results

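The liver of male mice after the first day of a high-fat diet was compared with the liver of mice at the start of the diet. The comparison takes the 6 liver libraries at 1 day and the 6 at 0 days, 12 of the 1104 libraries of the series, and every gene with enough counts, which left 12592 of 20646 gene symbols. Both groups were wild-type males of strain C57BL/6 (C57BL/6J in the series' design text), and the diet, D12492 with 60 kcal% fat, was given from 8 weeks of age. The group at 1 day had been on this diet for 1 day, and the group at 0 days was taken at its onset. The series measured messenger RNA in 13 organs of such mice by RNA-seq of poly(A) RNA, with 6 mice per time point, and followed liver at 14 time points up to 12 weeks. The groups used here hold no mice kept off the diet in parallel, so diet, age and day of dissection cannot be told apart. No source used here gives the hour of dissection or says whether the mice had fed. The labels number 6 mice per group without saying more about how they were kept apart. The p-values rest on the spread between samples within groups, estimated over all 84 liver libraries and not over these 12 alone.

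The liver adjusts its lipid enzymes through transcription factors that read its sterols and fatty acids. When sterol in the endoplasmic reticulum is scarce, SREBP2 is released and switches on the genes of cholesterol synthesis. SREBP1 and the sugar-sensing factor ChREBP act on the genes of fatty acid synthesis, and polyunsaturated fatty acids restrain SREBP1 and its targets, among them the desaturases that make long polyunsaturated fatty acids. PPARA, which binds fatty acids, drives their oxidation and ketone body synthesis. The nuclear receptors PXR and CAR control cytochrome P450 and conjugating enzymes, which clear drugs, steroids and plant compounds.

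Library totals ran between 10138424 and 14330068 counts with a median of 11891426, so that 1 CPM, the unit of level used here (counts scaled to a common library size), stands for about 11.9 counts. Low genes are limited by counting error. Libraries of one group differed by more than sampling noise in every pair (chi-square per degree of freedom of at least 13.25). On the first principal component, which held 21.16% of the variance, the libraries at 1 day lay between 3.62 and 24.1 and those at 0 days between -32.58 and 5.33, where replicate 2 at 0 days lay among the libraries at 1 day. All 12 hepatocyte markers were measured, with a summed level of 115344 to 143025 CPM at 1 day and 121186 to 136841 CPM at 0 days. Of them only Apoa1, itself a lipoprotein gene, was called. No gene was called among the tested markers of cholangiocytes, Kupffer cells, neutrophils, B cells, T and NK cells, sinusoidal endothelium, stellate cells, erythroid cells, pancreatic acini, adipocytes or muscle. Some of these lists had few tested members, so little could be called in them. They were 1 of 12 for T and NK cells, 1 of 14 for pancreatic acini and 1 of 8 for muscle. For neutrophils and for adipocytes they were 4 of 9 each. The summed levels of the lists named here overlapped between the groups. In whole tissue, fewer cells of a type and less RNA per cell cannot be told apart.

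Across the 12592 genes, 617 were higher at 1 day (4.9%) and 598 were lower (4.75%), together 9.65%, at an adjusted p under 0.05 in edgeR's quasi-likelihood test. Most of these changes were small. The median absolute log2 fold change of the called genes was 0.33, and 97 genes changed at least 2-fold, 64 of them higher and 33 lower. All 6 mice at 1 day lay above all 6 at 0 days for 256 genes (2.03%) and below them for 213 (1.69%). The median log2 fold change of all genes was -0.01, and each list below is read against these shares. Of the 27 gene lists examined, that of cholesterol synthesis had the highest share of members called higher, and that of conjugation and glutathione enzymes the highest share called lower. The lists were chosen with earlier results of these data known, so this order is a description and not a test.

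**Figure D1:**
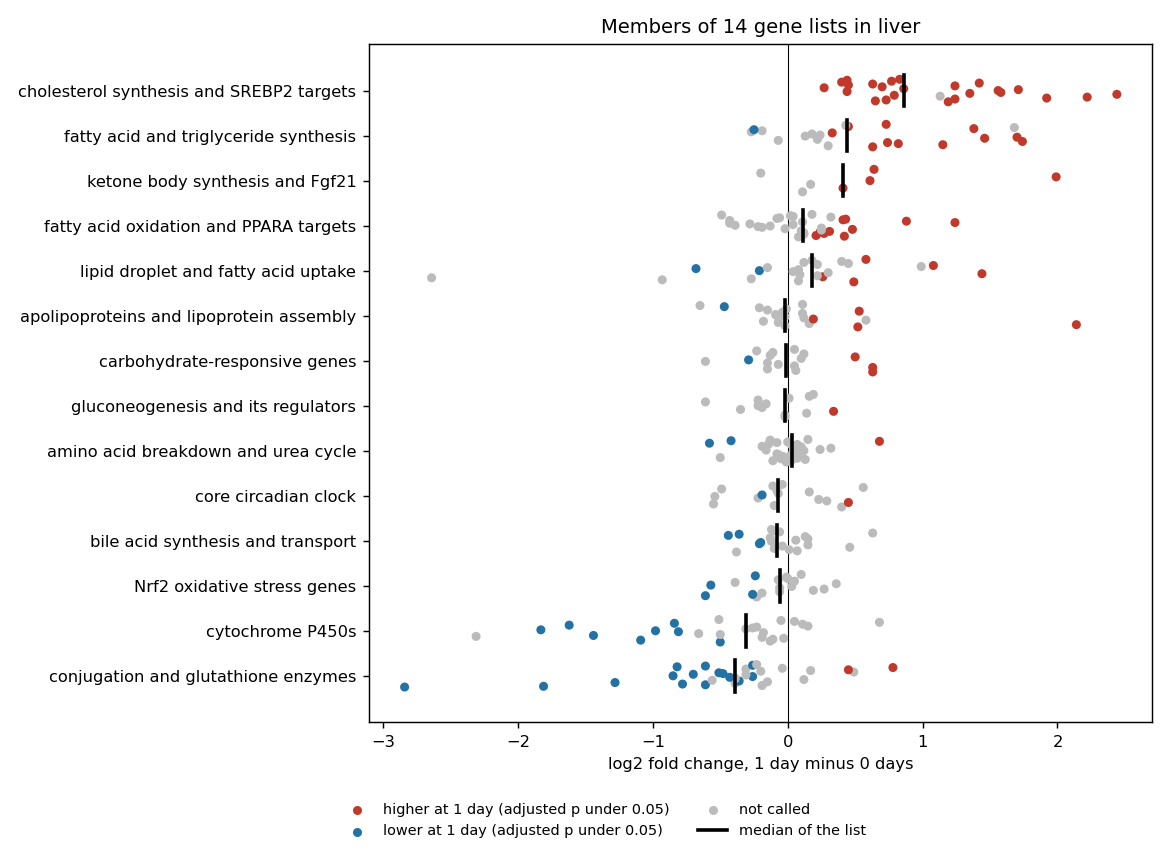
Log2 fold changes, 1 day minus 0 days, of the tested members of 14 gene lists in liver, 1 point per gene, with the median of each list as a bar. The cholesterol list lies wholly to the right of 0 with a median of 0.86, and the list of conjugation and glutathione enzymes has its median at -0.39.

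Of the 25 genes of cholesterol synthesis and SREBP2 targets, 24 rose and none fell, against 4.9% of all genes. Their median log2 fold change was 0.86. The mice did not overlap between the groups for 11 of them. Sqle, squalene epoxidase, a rate-limiting enzyme of the sterol branch (chromosome 15, 59315077 to 59331192, plus strand, GRCm38), had 14.7, 36.6 and 49.1 CPM as the lowest, median and highest mouse at 1 day, against 3.91, 6.53 and 9.56 CPM at 0 days. Every mouse at 1 day lay above every mouse at 0 days, and the log2 fold change was 2.44 ± 0.30 (SE, n = 6 each, adjusted p = 3.8e-09 by edgeR). Idi1, the isomerase that makes the building block for chain growth, had 32.6, 74.2 and 108 CPM at 1 day and 6.62, 15.4 and 28.4 CPM at 0 days. Its groups did not overlap either (2.22 ± 0.27, adjusted p = 4.6e-09 by edgeR). Mvd, the decarboxylase one step before it, had 2.93, 8.58 and 14.8 CPM at 1 day against 1.17, 2.29 and 3.52 CPM at 0 days, and 5 of 6 mice at 1 day lay above the highest at 0 days (1.92 ± 0.37).

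The enzymes that turn squalene epoxide into cholesterol rose with them. Cyp51, which removes a methyl group from lanosterol, had 75.8, 154 and 177 CPM at 1 day against 29.5, 47.6 and 71.1 CPM at 0 days. Lss, lanosterol synthase, had 29.1, 53.8 and 62.6 CPM at 1 day against 15.0, 20.2 and 25.4 CPM at 0 days. Nsdhl, a dehydrogenase of the later steps, had 34.7, 60.2 and 79.6 CPM at 1 day against 11.4, 15.3 and 27.0 CPM at 0 days. None of these 3 overlapped between the groups, with log2 fold changes of 1.58 ± 0.20 for Cyp51, 1.35 ± 0.17 for Lss and 1.71 ± 0.22 for Nsdhl. Msmo1 (1.56 ± 0.23) and Dhcr7 (1.24 ± 0.18), further enzymes of the same stretch, also rose, each with 5 of 6 mice at 1 day above every mouse at 0 days.

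Hmgcs1, which makes HMG-CoA at the entry into the pathway, rose by 1.19 ± 0.26, and Insig1, which holds SREBP back in the endoplasmic reticulum, by 0.77 ± 0.19. Srebf2, the gene of SREBP2 itself, rose by 0.44 ± 0.10, and its groups did not overlap. The member that was not called was Fdps, which had 0.154, 1.89 and 2.27 CPM at 1 day against 0.313, 0.704 and 1.21 CPM at 0 days (1.13 ± 0.51, adjusted p = 0.16 by edgeR).

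Mice differed in how far these genes moved. At 1 day replicate 1 was the lowest of 6 for 20 of the 25 genes and replicate 6 for the other 5. The highest mouse at 1 day was replicate 2, 3 or 4 for 8, 9 and 6 genes in this order. At 0 days replicate 2 was the highest of 6 for 19 genes, and replicates 4 and 6 were the lowest for 10 and 11. The summed level of the 25 genes was 2223 CPM in replicate 1 and 2386 CPM in replicate 6 at 1 day, against 2181 CPM in replicate 2 at 0 days. The other 4 mice at 1 day had 2861 to 3623 CPM, and the other 5 at 0 days 1540 to 1906 CPM. These counts describe the mice and were not tested.

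**Figure D2:**
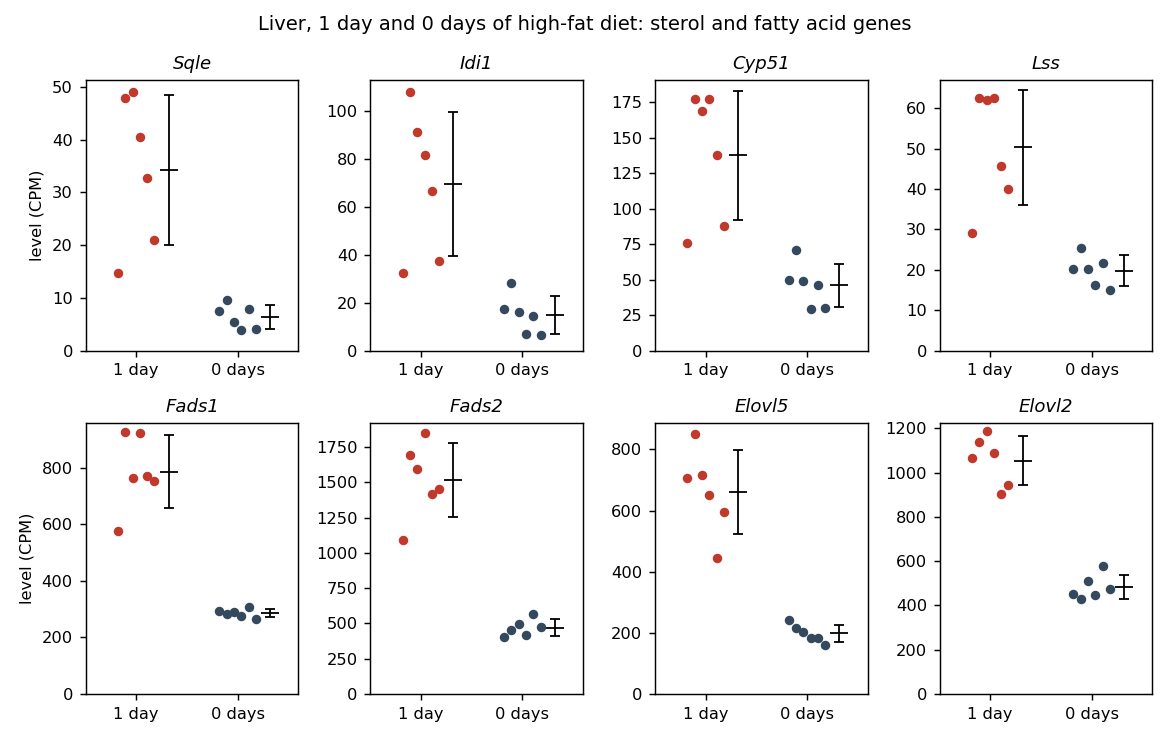
Level in CPM of 4 sterol genes (top row) and 4 genes of polyunsaturated fatty acid synthesis (bottom row) in each liver, with 6 mice at 1 day left of 6 mice at 0 days and mean ± SD beside the points. In each panel all mice at 1 day lie above all mice at 0 days, as for Sqle at 14.7 to 49.1 CPM at 1 day against 3.91 to 9.56 CPM at 0 days.

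The promoters of members that rose together are shown because SREBP acts beside the factor NF-Y, which binds the letters CCAAT. Windows of 250 bases before and 50 after the start of transcription were read from RefSeq on build GRCm38.p6, and 17 of the 25 genes of the list had an entry. The windows below are those of the members with the smallest p-values that had an entry, and of Hmgcs1. Each is printed 5′ to 3′ as the table orients it, on the strand it gives. The last bases of the windows of Idi1, Lss and Cyp51 were found in a GENCODE transcript of the gene, and those of Nsdhl and Hmgcs1 were not. Capitals mark CCAAT on either strand (read as ATTGG on the other) and TCACNCCAC, a form of the sterol response element, searched on both strands. 
Idi1 (chr13:8885356-8885655, plus strand): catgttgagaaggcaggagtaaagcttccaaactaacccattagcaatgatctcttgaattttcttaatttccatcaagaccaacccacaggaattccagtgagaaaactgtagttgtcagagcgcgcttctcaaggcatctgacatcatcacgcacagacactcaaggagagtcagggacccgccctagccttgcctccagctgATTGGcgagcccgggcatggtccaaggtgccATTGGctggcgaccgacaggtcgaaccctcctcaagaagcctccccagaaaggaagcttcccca
Lss (chr10:76531355-76531654, plus strand): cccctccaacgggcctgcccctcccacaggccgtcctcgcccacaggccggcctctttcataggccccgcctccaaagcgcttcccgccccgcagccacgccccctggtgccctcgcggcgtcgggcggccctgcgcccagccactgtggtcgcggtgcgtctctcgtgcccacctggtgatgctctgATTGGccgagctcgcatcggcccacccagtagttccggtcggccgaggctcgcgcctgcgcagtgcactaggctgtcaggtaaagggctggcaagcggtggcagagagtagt
Cyp51 (chr5:4104648-4104947, minus strand): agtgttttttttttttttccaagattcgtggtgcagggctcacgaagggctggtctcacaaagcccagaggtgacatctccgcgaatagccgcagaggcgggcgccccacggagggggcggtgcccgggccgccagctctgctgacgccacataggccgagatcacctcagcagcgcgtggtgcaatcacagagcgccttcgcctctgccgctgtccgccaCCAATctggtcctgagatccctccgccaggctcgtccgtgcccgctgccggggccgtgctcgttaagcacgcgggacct
Nsdhl (chrX:72918271-72918570, plus strand): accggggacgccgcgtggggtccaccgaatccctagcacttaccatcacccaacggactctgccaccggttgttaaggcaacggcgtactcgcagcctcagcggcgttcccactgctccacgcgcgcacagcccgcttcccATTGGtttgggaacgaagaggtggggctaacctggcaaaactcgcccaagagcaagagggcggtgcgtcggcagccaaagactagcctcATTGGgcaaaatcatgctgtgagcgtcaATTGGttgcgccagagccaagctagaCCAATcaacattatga
Hmgcs1 (chr13:119690101-119690400, plus strand): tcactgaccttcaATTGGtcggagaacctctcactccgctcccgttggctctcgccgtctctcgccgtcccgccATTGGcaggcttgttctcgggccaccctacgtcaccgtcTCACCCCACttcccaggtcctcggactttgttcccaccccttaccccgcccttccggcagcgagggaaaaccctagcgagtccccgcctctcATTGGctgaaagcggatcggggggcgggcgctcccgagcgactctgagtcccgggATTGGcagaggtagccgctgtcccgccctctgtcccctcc
Hmgcs1 holds 4 CCAAT matches and 1 TCACNCCAC, Nsdhl 4 CCAAT, Idi1 2, and Lss and Cyp51 1 each. At least 1 window with CCAAT was found for 16 of the 17 genes (94.1%), against 43.0% of the 10064 tested genes with an entry and 41.1% of all 27025 genes in the table. TCACNCCAC was found for 1 of the 17 (5.88%), against 1.48% of tested genes and 1.44% of all genes. The list was defined by pathway and as SREBP2 targets, so these shares describe the list and not genes chosen by their rise. A match is a description of these letters and shows neither binding nor a cause of the change.

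Genes of the synthesis of long polyunsaturated fatty acids rose at high levels of expression. Elovl2, an elongase that lengthens them (chromosome 13, 41182381 to 41220405, minus strand), had 902, 1077 and 1186 CPM at 1 day, against 427, 463 and 578 CPM at 0 days. Its log2 fold change of 1.13 ± 0.10 had the smallest p of all higher genes (adjusted p = 5e-14 by edgeR). Fads2, the desaturase that opens the pathway, had 1093, 1524 and 1848 CPM at 1 day against 401, 461 and 569 CPM at 0 days (1.70 ± 0.18). Fads1, the second desaturase, had 578, 768 and 926 CPM at 1 day against 264, 286 and 309 CPM at 0 days (1.46 ± 0.16). Elovl5, the elongase that acts between them, had 444, 678 and 852 CPM at 1 day against 160, 193 and 242 CPM at 0 days (1.74 ± 0.23). None of the 4 genes overlapped between the groups, and each was at least 2.19-fold higher on average. Fads3, a related gene that lies with Fads1 and Fads2 on chromosome 19, had 18.8, 42.6 and 79.8 CPM at 1 day against 11.6, 12.1 and 18.7 CPM at 0 days (1.84 ± 0.26).

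Of the 22 genes of fatty acid and triglyceride synthesis, 11 rose and 1 fell, with a median of 0.44. Besides the desaturases and Elovl5, the rise was clear for Thrsp, a lipogenic cofactor that had 533, 722 and 1102 CPM at 1 day against 220, 273 and 480 CPM at 0 days (1.38 ± 0.29), and for Acacb, the mitochondrial acetyl-CoA carboxylase (1.15 ± 0.25). Neither overlapped. Fasn, fatty acid synthase, had 272, 404 and 628 CPM at 1 day and 182, 211 and 354 CPM at 0 days, and rose by 0.82 ± 0.22 with 3 of 6 mice above the highest at 0 days. Acsl5, which activates fatty acids, rose by 0.45 ± 0.09. Other genes of the same list did not pass the test: Acaca, the cytosolic carboxylase, differed by 0.30 ± 0.15 (adjusted p = 0.21 by edgeR), Srebf1 by 0.24 ± 0.14 (adjusted p = 0.3) and the desaturase Scd1 by 0.22 ± 0.37 (adjusted p = 0.78). Dgat2, which makes triglyceride, was the member that fell, with 490, 548 and 590 CPM at 1 day against 598, 654 and 680 CPM at 0 days (-0.25 ± 0.07).

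Of 16 carbohydrate-responsive genes 3 rose and 1 fell (median -0.01), and of 13 genes of gluconeogenesis 1 rose and none fell (median -0.02), shares of higher genes that are set against 4.9% in the whole comparison. Pfkfb1, which makes the activator of glycolysis, rose by 0.63 ± 0.12 without overlap, and Pgd of the pentose phosphate pathway by 0.50 ± 0.12, a call that ended when the 12 libraries were fitted alone (adjusted p = 0.069 by edgeR). Mlxipl, the gene of ChREBP, fell by 0.29 ± 0.08 on the log2 scale, with 5 of 6 mice at 1 day below every mouse at 0 days. Pcx, pyruvate carboxylase, had 660, 682 and 721 CPM at 1 day against 510, 539 and 568 CPM at 0 days, and was the called gene of gluconeogenesis (0.34 ± 0.09).

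Of 34 genes of fatty acid oxidation and PPARA targets, 10 rose and none fell, with a median of 0.11. The fitted change was above 0 for 23 of the 34 and below 0 for 11, so the rise was not shared by the whole list. Members that were not called included Cyp4a10 (0.25), Pdk4 (0.11), Ehhadh (-0.02), Cyp4a14 (-0.19), Acot1 (-0.39), Acot4 (-0.43) and Angptl4 (-0.49). Fabp1, the liver fatty acid binding protein, had 3900, 4276 and 4963 CPM at 1 day against 1914, 2392 and 2725 CPM at 0 days (0.88 ± 0.13). Cpt1a, which admits fatty acids to the mitochondrion, had 631, 689 and 811 CPM at 1 day against 457, 525 and 605 CPM at 0 days (0.42 ± 0.08). Neither overlapped, and the same held for the oxidation enzymes Hadhb (0.31 ± 0.06) and Decr1 (0.41 ± 0.08). Vnn1, a pantetheinase, rose by 1.24 ± 0.30. Ppara itself had 125, 174 and 206 CPM at 1 day and 122, 163 and 191 CPM at 0 days (0.08 ± 0.12, adjusted p = 0.76 by edgeR). Of 7 genes of ketone body synthesis and Fgf21, 4 rose, with a median of 0.41. Bdh1, which makes hydroxybutyrate, rose by 0.61 ± 0.10, Acat1, the thiolase, by 0.41 ± 0.07, and Slc16a6, known in zebrafish as a liver exporter of ketone bodies, by 0.64 ± 0.18. Fgf21, a hormone released by liver, was low, with 1.03, 1.52 and 2.48 CPM at 1 day against 0, 0.348 and 0.839 CPM at 0 days (1.99 ± 0.54).

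Among 21 genes of apolipoproteins and lipoprotein assembly 4 rose and 1 fell, and the median was -0.02. Apoa4, made when fat is absorbed or stored (chromosome 9, 46240696 to 46243459, plus strand), had 430, 539 and 743 CPM at 1 day against 86.2, 112 and 168 CPM at 0 days. The groups lay far apart, with a log2 fold change of 2.14 ± 0.32 (adjusted p = 8.4e-07 by edgeR). Apoa1, the main protein of HDL, had 11115, 12100 and 13941 CPM at 1 day against 7042, 8776 and 9501 CPM at 0 days (0.52 ± 0.06). The calls of Apoc3 (0.19 ± 0.06) and Pltp (0.53 ± 0.18) were weak. That of Apoc3 ended without any of replicates 1, 2, 3, 5 and 6 at 0 days and 2, 3 and 5 at 1 day, and that of Pltp without any of replicates 1, 2, 4, 5 and 6 at 0 days and 2, 4 and 6 at 1 day, with adjusted p up to 0.097 for Apoc3 and 0.19 for Pltp.

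Of 23 genes of lipid droplets and fatty acid uptake 5 rose and 2 fell (median 0.18). Fabp2, the intestinal-type fatty acid binding protein, had 106, 115 and 119 CPM at 1 day against 33.5, 43.4 and 48.1 CPM at 0 days, a log2 fold change of 1.44 ± 0.15. It is also on the list of intestinal markers, of which no other passed the filter on low counts and 4 of 10 had no count in any of the 12 libraries. Mgll, which splits monoglycerides, rose by 0.58 ± 0.13, Plin2, which coats lipid droplets, by 0.49 ± 0.14, Cideb, which lipidates VLDL, by 0.26 ± 0.06, and Hilpda, an inhibitor of lipolysis, by 1.08 ± 0.30 at 1.31 to 2.48 CPM at 1 day against 0.518 to 1.21 CPM at 0 days. None of these overlapped. Slc27a5, which activates bile acids and fatty acids, fell by 0.21 ± 0.05 on the log2 scale. Lpl, lipoprotein lipase, was also called lower (-0.68 ± 0.22), but not without replicate 1, 2 or 3 at 0 days or replicate 2, 4, 5 or 6 at 1 day, with adjusted p between 0.053 and 0.13.

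The genes that were lower at 1 day were led by enzymes that clear foreign compounds. Of 25 tested cytochrome P450 genes and their regulators 8 fell and none rose, against 4.75% of all genes that fell, and the median was -0.31. Cyp3a11, a main drug-metabolising P450 of mouse liver (chromosome 5, 145854426 to 145879964, minus strand), had 989, 1463 and 1747 CPM at 1 day against 3597, 4194 and 5571 CPM at 0 days. The groups did not overlap, and the log2 fold change was -1.62 ± 0.21 (adjusted p = 1.1e-08 by edgeR). Cyp2c29 had 252, 501 and 579 CPM at 1 day against 1064, 1266 and 1416 CPM at 0 days (-1.44 ± 0.17). Cyp2a5, which oxidises coumarin, had 215, 361 and 453 CPM at 1 day against 598, 607 and 1000 CPM at 0 days (-1.09 ± 0.17), and Cyp2c50 fell by 0.81 ± 0.12 on the log2 scale. These 4 genes did not overlap between the groups. Cyp3a59, a relative of Cyp3a11 on the same chromosome that is not on the list, fell by 1.22 ± 0.22 on the log2 scale, and Cyp2c55, at 0.512 to 1.62 CPM at 1 day against 2.19 to 6.48 CPM at 0 days, by 1.83 ± 0.33. Genes of these families are near-identical, and the counting could split their reads. The summed level of the 25 genes was 12333 to 17081 CPM at 1 day and 18945 to 25896 CPM at 0 days.

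The receptors known to drive these enzymes were not called. Nr1i2, the gene of PXR, had 72.1, 85.8 and 98.8 CPM at 1 day and 69.7, 89.3 and 106 CPM at 0 days (-0.05 ± 0.13, adjusted p = 0.87 by edgeR). Nr1i3, the gene of CAR, had 148, 188 and 247 CPM at 1 day and 181, 289 and 376 CPM at 0 days (-0.51 ± 0.19, adjusted p = 0.083 by edgeR). It was called lower without replicate 1 at 0 days (adjusted p = 0.047) or replicate 2 at 0 days (adjusted p = 0.038).

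Of 31 conjugation and glutathione enzymes 15 fell and 2 rose, with a median of -0.39, and for 11 of them every mouse at 1 day lay below every mouse at 0 days. Ugt2b5, a glucuronosyltransferase, had 458, 531 and 580 CPM at 1 day against 742, 829 and 1045 CPM at 0 days, and its fall of 0.70 ± 0.06 on the log2 scale had the smallest p of all lower genes (adjusted p = 3.2e-13 by edgeR). Its neighbour Ugt2b36 had 410, 486 and 499 CPM at 1 day against 597, 655 and 745 CPM at 0 days (-0.51 ± 0.05). Both are members of a family of similar genes on chromosome 5. Gsta2, a glutathione transferase, had 4.36, 13.3 and 16.4 CPM at 1 day against 25.6, 38.2 and 58.0 CPM at 0 days (-1.81 ± 0.31), and Gstm3 had 16.7, 17.0 and 21 CPM at 1 day against 30.1, 42.3 and 58.1 CPM at 0 days (-1.28 ± 0.31). Ephx1, the microsomal epoxide hydrolase, fell by 0.82 ± 0.11 and Gclc, which catalyses the first step of glutathione synthesis, by 0.61 ± 0.10 on the log2 scale, again without overlap. Gclm, its partner subunit, fell by 0.26 ± 0.05. The 2 members that rose were the sulfotransferases Sult1b1 (0.45 ± 0.12) and Sult5a1 (0.78 ± 0.19). Sult1b1 was not called with the 12 libraries fitted alone (adjusted p = 0.057 by edgeR).

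**Figure D3:**
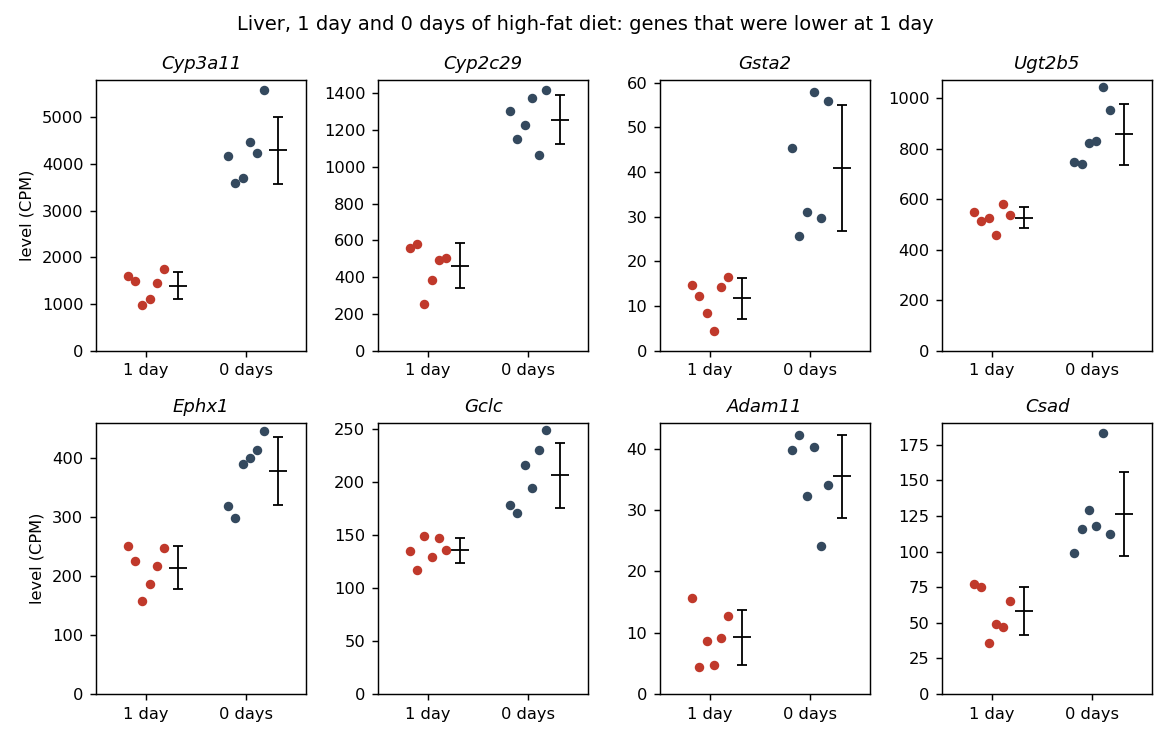
Level in CPM of 8 genes that were lower at 1 day, in each liver, with 6 mice at 1 day left of 6 mice at 0 days and mean ± SD beside the points. The groups do not overlap in any panel, and Cyp3a11 lies at 989 to 1747 CPM at 1 day against 3597 to 5571 CPM at 0 days.

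Among 18 tested genes of the Nrf2 oxidative stress list 4 fell and none rose (median -0.06). Beside Gclc and Gclm these were Gpx1, a glutathione peroxidase (-0.24 ± 0.07, not called with the 12 libraries fitted alone, adjusted p = 0.072 by edgeR), and the exporter Abcc3 (-0.57 ± 0.18), whose call ended without replicate 4 or 6 at 0 days or replicate 3 or 4 at 1 day, with adjusted p between 0.056 and 0.09. Of 20 genes of bile acid synthesis and transport 4 fell and none rose (median -0.08). Abcg5, a subunit of the exporter that moves sterol into bile, had 92.0, 105 and 132 CPM at 1 day against 115, 145 and 189 CPM at 0 days, and fell by 0.44 ± 0.10 on the log2 scale, with 4 of 6 mice at 1 day below every mouse at 0 days. Its partner Abcg8 fell by 0.36 ± 0.09, a call that ended without replicate 4 at 0 days (adjusted p = 0.051). The other members called were Slc27a5 and Baat, which join bile acids to amino acids. Baat (-0.20 ± 0.06) was no longer called without replicate 1 or 5 at 0 days or replicate 3, 4 or 6 at 1 day, with adjusted p between 0.057 and 0.11. With the 12 libraries fitted alone 1 of the 20 was called lower, since Abcg8 (adjusted p = 0.063 by edgeR), Baat (0.083) and Slc27a5 (0.056) lost their calls. Cyp7a1, the rate-limiting enzyme of bile acid synthesis, varied widely, with 75.9, 216 and 314 CPM at 1 day and 179, 247 and 412 CPM at 0 days (-0.38 ± 0.38, adjusted p = 0.6).

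Genes outside these lists changed too. Adam11, a protein of the ADAM family of cell surface proteins, was the gene with the largest fall among called genes with a mean of at least 5 CPM, with 4.41, 8.89 and 15.7 CPM at 1 day against 24.2, 36.9 and 42.3 CPM at 0 days (-1.94 ± 0.23, adjusted p = 2.9e-09 by edgeR). Csad, which makes the precursor of taurine, had 35.7, 57.0 and 77.4 CPM at 1 day against 99.2, 117 and 183 CPM at 0 days (-1.12 ± 0.21). Neither overlapped. Wdtc1, a WD repeat protein known as an antiobesity gene in fly and mouse, had 98.6, 112 and 127 CPM at 1 day and 163, 169 and 181 CPM at 0 days (-0.61 ± 0.06). Further falls were those of 9130409I23Rik (-1.22 ± 0.27), of Pla2g12a, a secreted phospholipase (-1.11 ± 0.17), and of Phf11c (-1.31 ± 0.40). The last had 6.50 to 22.2 CPM at 1 day and 5.63 to 55.2 CPM at 0 days, and its call ended without replicate 5 or 6 at 0 days or any of replicates 1 to 5 at 1 day, with adjusted p between 0.052 and 0.21 and a change of -0.85 without replicate 6 at 0 days.

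Pgm3, an enzyme of the hexosamine pathway, had 28.4, 32.8 and 38.6 CPM at 1 day against 12.3, 16.1 and 18.7 CPM at 0 days (1.06 ± 0.11), without overlap. Smpd3, a neutral sphingomyelinase, had 4.67, 8.04 and 15.1 CPM at 1 day and 0.933, 1.65 and 5.73 CPM at 0 days (2.03 ± 0.36). Cib3, a calcium-binding protein, rose by 1.82 ± 0.27 and Tspan31, a tetraspanin, by 0.54 ± 0.06, both without overlap. Mup8, a major urinary protein, had the highest fitted change (4.29 ± 1.04), but 1 mouse carried it. Replicate 3 at 1 day had 686 CPM, the other 5 mice at 1 day had 4.91 to 33.9 CPM, and those at 0 days had 2.66 to 15.5 CPM. Without replicate 3 the change was 1.02 and was not called (adjusted p = 0.6 by edgeR), and genes of this family are too alike for counts to be told apart safely.

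Lists that follow the hour, feeding, stress or handling are read against the 9.65% of all genes called in either direction. Of 16 core clock genes Per2 rose (0.45 ± 0.14) and Nr1d2 fell (-0.19 ± 0.06), and of 14 clock output genes Leo1 rose (0.48 ± 0.12) and Tef fell (-0.21 ± 0.07). Leaving out single libraries ended the calls of Per2 (replicate 1 or 2 at 0 days, 2 or 4 at 1 day, adjusted p up to 0.1), Nr1d2 (replicate 6 at 0 days, 0.07) and Tef (replicates 3 to 6 at 0 days, 1, 3, 4 and 6 at 1 day, up to 0.11). Of 23 immediate early genes Klf2 fell (-0.87 ± 0.26), and of 15 glucocorticoid-induced genes and metallothioneins Sgk1 fell (-0.65 ± 0.20), although the median of that list was -0.49. The call of Klf2 ended without replicate 3 at 0 days or replicate 1 or 5 at 1 day, and that of Sgk1 without replicate 3 at 0 days or replicate 1 or 3 at 1 day, with adjusted p up to 0.088 for Klf2 and 0.12 for Sgk1. Of 17 heat shock and cold-inducible genes Hsp90aa1 (0.54 ± 0.12), Ahsa1 (0.24 ± 0.07) and Stip1 (0.32 ± 0.10) rose and Rbm3 fell (-0.51 ± 0.10). Ahsa1 was not called without replicate 2 at 1 day (adjusted p = 0.08), nor Stip1 without replicate 2 or 4 at 0 days or 2, 3 or 4 at 1 day (up to 0.11). Hsp90aa1 and Rbm3 did not overlap between the groups.

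Of 25 genes of endoplasmic reticulum stress Creld2 rose (0.93 ± 0.31) and Dnajb9 (-0.47 ± 0.12) and Herpud1 (-0.58 ± 0.17) fell. The call of Creld2 ended without any library but replicate 2 at 0 days or replicate 2 at 1 day, with adjusted p up to 0.13. That of Dnajb9 ended without replicate 6 at 0 days (0.06) and that of Herpud1 without replicate 4 or 6 at 0 days or 1 at 1 day (up to 0.071). Over all alternatives 0 to 5 members of this list were called higher and 0 to 3 lower. Of 37 genes of amino acid breakdown Bhmt rose (0.68 ± 0.15) and Gnmt (-0.42 ± 0.09) and Cth (-0.58 ± 0.13) fell, 3 enzymes of methyl group and sulfur amino acid metabolism. Bhmt was not called with the 12 libraries fitted alone (adjusted p = 0.063 by edgeR). Gnmt had 1081, 1158 and 1369 CPM at 1 day against 1368, 1593 and 1792 CPM at 0 days, and 5 of 6 mice at 1 day lay below all mice at 0 days. Of 25 acute phase genes Steap4, a metalloreductase, rose (1.14 ± 0.21) with 152, 221 and 296 CPM at 1 day against 76.0, 95.9 and 123 CPM at 0 days. Saa4 (0.73 ± 0.19) and Cp (0.16 ± 0.05) rose too, and Cp was not called without replicate 2 or 4 at 0 days or 1 or 2 at 1 day (up to 0.09).

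Interferon genes held 1 call in 27, Psmb9 (0.51 ± 0.16), which was lost without replicate 1, 4 or 6 at 0 days or 2, 3 or 4 at 1 day (adjusted p up to 0.1). Cytokines and chemokines held 1 call in 12, the NF-kappaB inhibitor Nfkbia (-0.74 ± 0.17). Among 23 tested genes of cell division Top2a (1.5 ± 0.43) and Mki67 (0.92 ± 0.31) were called higher at levels of 1.33 to 5.47 CPM at 1 day and 0.0781 to 2.41 CPM at 0 days. The call of Top2a ended without replicate 4 at 0 days or replicate 4 at 1 day, and that of Mki67 without replicates 1, 4, 5 or 6 at 0 days or 2, 3, 4 or 6 at 1 day, with adjusted p up to 0.082 for Top2a and 0.12 for Mki67. Of genes that are higher in male liver 1 of 20 rose, Mup21 (0.83 ± 0.24), a call lost without replicate 4 at 0 days (adjusted p = 0.062) or replicate 4 at 1 day (0.059). Of genes higher in female liver 1 of 9 rose, Cyp17a1 (1.49 ± 0.40). None of 14 genes of the growth hormone axis was called. Of 28 genes of oxidative phosphorylation 2 rose, among them Ndufs1 (0.22 ± 0.05).

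Later liver time points are given beside the first day. They share the 6 libraries at 0 days, so the comparisons are not independent of each other. Of the cholesterol list 24 genes were higher at 1 day, 5 at 3 days, 11 at 1 week and 23 at 12 weeks, where the shares of all genes called higher were 4.9%, 4.43%, 5.19% and 20.6%. Sqle averaged 6.40 ± 2.27 CPM at 0 days, 34.3 ± 14.2 at 1 day, 18.8 ± 8.50 at 3 days, 22.2 ± 7.34 at 1 week and 61.6 ± 16.3 at 12 weeks (SD, n = 6 each). Its mean was thus lower at 3 days and 1 week than at 1 day. Elovl5 was also lower at 3 days and 1 week than at 1 day, with 198 ± 29.0, 661 ± 136, 398 ± 88.6, 255 ± 55.4 and 1189 ± 177 CPM at these times. Fads2 averaged 467 ± 60.3 CPM at 0 days and 1516 ± 260 at 1 day, and 1196 ± 198 at 3 days, 915 ± 144 at 1 week and 1602 ± 160 at 12 weeks.

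Of the conjugation list 15 genes were lower at 1 day, 18 at 3 days, 17 at 1 week and 11 at 12 weeks, where the shares of all genes called lower were 4.75%, 4.84%, 5.55% and 21.4%. The same list had 2 genes higher at 1 day, 1 at 3 days, 1 at 1 week and 9 at 12 weeks, when its median was -0.08. Cyp3a11 averaged 4288 ± 710 CPM at 0 days, 1395 ± 294 at 1 day, 895 ± 142 at 3 days, 577 ± 122 at 1 week and 833 ± 70.7 at 12 weeks. Adam11 had 35.5 ± 6.74, 9.20 ± 4.42, 8.03 ± 1.54, 6.69 ± 1.99 and 5.16 ± 2.03 CPM at these times, and both genes stayed low. Gstm3 was low early and high late, with 42.9 ± 9.45 CPM at 0 days, 17.7 ± 1.67 at 1 day, 7.13 ± 2.27 at 3 days, 7.50 ± 3.41 at 1 week and 103 ± 37.6 at 12 weeks. Cib3 ran the other way, with 3.66 ± 1.44 CPM at 0 days, 12.8 ± 3.29 at 1 day, 13.5 ± 2.58 at 3 days, 10.3 ± 1.96 at 1 week and 2.01 ± 0.795 at 12 weeks.

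**Figure D4:**
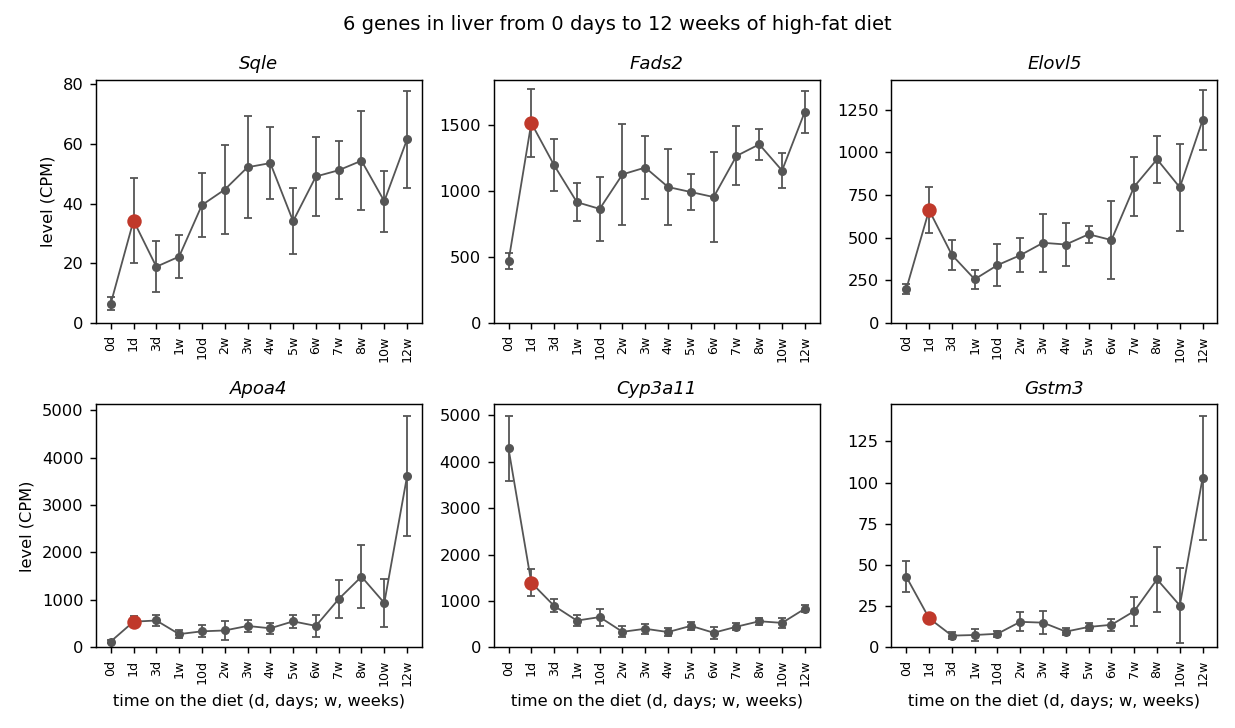
Mean level in CPM ± SD (n = 6 mice) of 6 genes in liver at 14 time points between 0 days and 12 weeks of diet, spaced evenly and not to scale in time, with 1 day in red. Sqle, Fads2 and Elovl5 are higher at 1 day than at 1 week, while Cyp3a11 is low at every time after 0 days.

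The first day was then set beside that of other organs of the series. The cholesterol list had 24 of 25 members higher in liver, 7 of 25 in small intestine with 1 lower, 19 of 25 in epididymal white fat, 14 of 23 in brown fat with 1 lower, none of 23 in gastrocnemius muscle, and none in hypothalamus with 4 lower. The shares of all genes called higher were 4.9% in liver, 12.1% in small intestine, 10.8% in epididymal fat, 8.25% in brown fat, 0.153% in gastrocnemius and 3.39% in hypothalamus, and of those called lower 4.75%, 11.4%, 8.26%, 9.6%, 0.168% and 1.9% in the same order of organs. The change in liver was larger than that in small intestine for 16 of the 25 genes by the test of the difference itself (edgeR interaction), where 4.52% of 14804 genes were called in that direction. For Sqle the difference was 2.43 ± 0.31 (adjusted p = 4.1e-10) and for Idi1 2.12 ± 0.29 (adjusted p = 4.6e-09). Against epididymal fat 6 of the 25 differed upward and 2 downward, where 5.47% and 4.42% of 15510 genes were called. All these values for epididymal fat include its replicate 1 at 0 days, which had 1327 CPM of albumin transcript and is taken up below.

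**Figure D5:**
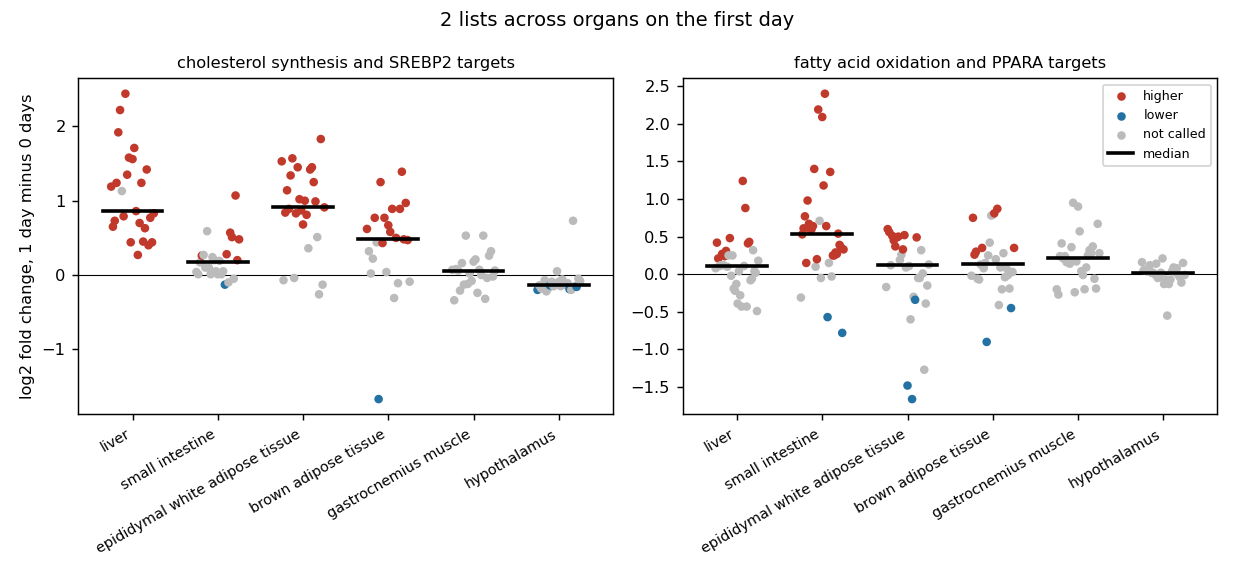
Log2 fold changes, 1 day minus 0 days, of the members of 2 lists in 6 organs, 1 point per gene, with red and blue for genes called higher and lower in that organ and the median as a bar. The cholesterol list has a median of 0.86 in liver and 0.91 in epididymal fat, and the fatty acid oxidation list a median of 0.11 in liver and 0.53 in small intestine. The values in epididymal fat include its replicate 1 at 0 days.

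Oxidation genes moved more in small intestine than in liver. Of the 34 genes of fatty acid oxidation, 10 were higher in liver, and of the 33 tested in small intestine 25 were higher and 2 lower. The difference was called for 15 of 34, with liver below intestine for 14 of them, where 6.32% of all genes were called in that direction. Of 11 P450 genes tested in small intestine 8 were lower there too and 1 higher, with a median of -0.93, where 11.4% of all genes were called lower. The change differed between the organs for 5 of 25 P450 genes with liver above intestine and 1 below, and for 2 and 8 of 31 conjugation genes. Of all genes 4.52% and 6.32% were called in these directions. In intestine alone, 11 of the 25 and 26 of the 31 passed the filter on low counts. For the rest, the difference sets the change in liver against low counts in intestine. Cyp3a11 had 120, 178 and 243 CPM in intestine at 1 day against 1005, 1293 and 1441 CPM at 0 days. Cyp2c29 had 0.499, 1.23 and 1.75 CPM in intestine at 1 day against 50.1, 68.1 and 79.1 CPM at 0 days, a log2 fold change of -5.77 ± 0.27, and the change in liver minus that in intestine was 4.33 ± 0.32 (adjusted p = 5.7e-24 by edgeR). Ugt2b5 fell in liver and rose in intestine (0.64, difference -1.33 ± 0.18, adjusted p = 4.3e-09).

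In the interaction with small intestine the change over the first day was called higher in liver for 669 genes and lower for 935. After Cyp2c29, genes among the smallest p-values with liver above intestine were Gfm2, a mitochondrial translation factor (0.60 ± 0.07), and Dpp4 (0.80 ± 0.09) and Anpep (0.85 ± 0.10), peptidases of the brush border. With liver below intestine they included H2-Q10, a class I histocompatibility gene (-4.12 ± 0.20), Bdh2 (-2.74 ± 0.23), the collagen Col18a1 (-0.97 ± 0.09) and Agmat, agmatinase (-1.19 ± 0.11). In intestine H2-Q10 had 68.3, 91.1 and 107 CPM at 1 day and 2.75, 3.60 and 4.90 CPM at 0 days, while in liver it rose by 0.39 ± 0.09. It belongs to a family of similar genes whose reads may be shared.

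Against epididymal fat the change over the first day was called higher in liver for 848 genes and lower for 686. The 5 smallest p-values with the change in liver above that in fat were those of liver genes, Apoa1, Fabp1, Apob, Gc and Ahsg. In liver itself Apoa1 and Fabp1 rose. Apob changed there by -0.07 ± 0.07, Gc by -0.04 ± 0.04 and Ahsg by -0.1 ± 0.07. In fat 1 library moved with these genes. Replicate 1 of epididymal fat at 0 days had 1327 CPM of albumin transcript, where the 5 others at 0 days had 5.50 to 16.4 CPM and the 6 at 1 day 8.06 to 15.7 CPM. Without that library 780 genes were called higher and 824 lower, and the difference was no longer called for Fabp1 (9.71 with it and 1.94 without), Apob (8.01 and 1.02) and Gc (8.60 and 1.06). For Apoa1 it was 7.42 with the library and 1.73 without (adjusted p = 0.042 by edgeR), and for Ahsg 4.95 and 0.93 (adjusted p = 0.048). Both were still called, but near the floor in fat. Without the library Apoa1 had 0 to 0.448 CPM in fat at 1 day and 0.254 to 0.819 CPM at 0 days. Ahsg had 0.324 to 0.98 CPM and 0.814 to 1.46 CPM. Of the cholesterol list, 5 genes differed upward and 3 downward without it. With liver below fat the leading genes were Ppp2r5a, a phosphatase subunit (-1.33 ± 0.14), Tbc1d20 (-0.75 ± 0.08), the histone methyltransferase Kmt5a (-1.39 ± 0.16), Dgat2 (-2.02 ± 0.25) and the tubulin Tubb5 (-1.42 ± 0.19), and each was still called without the library. Dgat2 fell in liver and rose by 1.80 ± 0.23 in fat.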

How the data were processed

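Liver RNA was measured by strand-specific poly(A) RNA-seq, per the labels' protocols. The authors deposited raw read counts per gene symbol in 1104 columns, of which 516 were used and 588 were not. The submitters' processing notes list HISAT2 2.1.0 and featureCounts 1.6.3, beside Trimmomatic 0.38, FastQC 0.11.7 and SAMtools 1.9, and name GRCm38 (mm10) as the genome build. No source used here gives the annotation or says whether reads were counted by strand, so reads of overlapping or near-identical genes may be shared. Groups come from the sample titles.

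All 84 liver libraries were fitted in edgeR 4.0.16 (R 4.3.3, limma 3.58.1) by glmQLFit and glmQLFTest, with 1 coefficient per time point, filterByExpr, TMM scaling and Benjamini-Hochberg adjustment at 0.05. Standard errors were the log2 fold change divided by the root of F, and CPM used the TMM factors. Interactions with small intestine and epididymal white fat were fitted on both organs together. The code was tested on simulated data. Alternatives were RLE scaling, no filter on low counts, DESeq2 1.42.0, the 12 libraries alone, a replicate block, GC and length offsets, and each library left out. Coordinates come from GENCODE M21, which matched 20319 of 20646 symbols, and promoters from RefSeq. Tables and figures used Python 3.11.15, numpy 2.4.6, pandas 2.3.3 and matplotlib 3.10.9.

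The comparison, the 27 gene lists and the 13 marker lists were chosen with earlier results of these data known. Genes were named by rule: the 10 highest and 10 lowest changes and the 5 smallest p-values per direction among genes with a mean of at least 5 CPM, the 4 smallest p-values of each list, and the 5 smallest per direction of each interaction. Other named genes were chosen after their values were seen. Some genes that the rule selects are not reported here.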

Additional observations from a re-analysis of the deposited data

Results flagged for a closer look

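In 19 of 240 groups of 6 livers, 1 mouse lay apart from the others of its group by Dixon's criterion, which chance gives in about 1 of 20 groups. At 1 day these were Bdh1 in replicate 3 (289 CPM), Gstm3 in replicate 4 (21 CPM), Phf11c in replicate 6 (22.2 CPM), Mup8 in replicate 3 (686 CPM), Creld2 in replicate 6 (66.0 CPM), Top2a in replicate 4 (5.47 CPM) and Pltp in replicate 2 (41.6 CPM), each the highest of its group. At 0 days Msmo1 (74.1 CPM), Thrsp (480 CPM), Smpd3 (5.73 CPM) and Mup8 (15.5 CPM) were highest in replicate 2, Fads3 (18.7 CPM) and Pltp (23.3 CPM) in replicate 3, Acat1 in replicate 1 (385 CPM), Apoc3 in replicate 4 (1531 CPM), Csad in replicate 5 (183 CPM) and Ndufs1 in replicate 6 (164 CPM). Cideb was lowest in replicate 6 at 0 days (163 CPM) and Hsp90aa1 in replicate 4 at 0 days (106 CPM).

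The change of 18 genes listed here over the first day differed between liver and another organ by edgeR's test of the interaction, given here as the log2 change in liver minus that in the other organ. Against small intestine the difference was 4.33 for Cyp2c29, 0.60 for Gfm2, 0.80 for Dpp4 and 0.85 for Anpep. It was -4.12 for H2-Q10, -2.74 for Bdh2, -0.97 for Col18a1 and -1.19 for Agmat. Against epididymal white fat it was 7.42 for Apoa1, 9.71 for Fabp1, 8.01 for Apob, 8.60 for Gc and 4.95 for Ahsg, and it was 1.73, 1.94, 1.02, 1.06 and 0.93 for these genes without replicate 1 of epididymal fat at 0 days, which had 1327 CPM of albumin transcript. It was -1.33 for Ppp2r5a, -0.75 for Tbc1d20, -1.39 for Kmt5a, -2.02 for Dgat2 and -1.42 for Tubb5.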

How the results depend on the processing

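No called change of a named gene changed sign under any alternative that was run. Nr1i2, which was not called (-0.05), had 0.01 without replicate 5 at 0 days. The 617 higher and 598 lower genes became 481 and 346 when the 12 libraries were fitted alone, and between 509 and 647 higher and between 452 and 600 lower when each library was left out. With the small intestine, 477 genes differed upward and 603 downward when the 24 libraries at 0 and 1 day were fitted alone, against 669 and 935. With epididymal fat the larger side turned, at 638 upward and 906 downward with the 24 libraries alone, and 780 and 824 without its replicate 1 at 0 days, against 848 and 686. The replicate numbers were not used to pair the mice in the main fit. The correlation of same-numbered deviations ran between -0.129 and 0.192 and passed 0.1 in 2 of 6 pairs. Such a correlation cannot exclude handling shared by replicate number. A fit with the replicate number as a block called 736 genes higher and 729 lower. Of 718 values of 120 genes under settings other than a left-out library, 692 stayed on their side of the threshold and 26 lost the call, and of 1440 values with a library left out 1328 stayed, 110 lost and 2 gained it. Over the alternatives 21 to 24 cholesterol genes, 10 to 12 genes of fatty acid synthesis and 8 to 11 of fatty acid oxidation were higher, and 8 to 11 P450 and 14 to 16 conjugation genes were lower. The 12 libraries alone also ended the calls of Ahsa1, Apoc3, Cp, Dnajb9, Lpl, Mki67, Mup21, Phf11c, Psmb9, Tef and Top2a, with adjusted p between 0.054 and 0.12. Of the smaller lists, the glucocorticoid list had 4 members lower with the replicate block, against 1, and 107 of 882 such list counts moved by over 1.5 times. The cause of the lower counts was not tested. Depth limits genes near 1 CPM, such as Fdps, Fgf21 and Gsta1.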

Other observations

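Groups of genes taken by symbol after their values were seen are given as a description. Of 80 cytosolic ribosomal protein genes 17 were lower at 1 day and none higher, with a median log2 fold change of -0.09 and 59 of 80 below 0, where 4.75% of all genes were called lower. Of 38 proteasome genes 8 were higher and none lower, with a median of 0.08, and of 74 mitochondrial ribosomal protein genes 4 were higher and 1 lower, with a median of 0.05, where 4.9% of all genes were called higher. Of 232 solute carriers 10 were higher and 11 lower.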
